A study of Homo sapiens with 8 samples.

Results

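The genes of glucose uptake and glycolysis were followed in LX-2 cells whose O-GlcNAc transferase (OGT) was or was not inhibited. OGT adds single O-GlcNAc sugars to nuclear and cytosolic proteins. The set holds 10 genes chosen by symbol, out of 16796 genes in the count files, and all 10 passed the filter on low counts that left 14895 genes to test. Its members are the glucose transporter gene SLC2A1, the hexokinase genes HK1 and HK2, the phosphofructokinase gene PFKP, and ALDOA, GAPDH, PGK1, ENO1, PKM and LDHA, which encode later enzymes of the pathway. LX-2 is an immortalised line made from human stellate cells (HSCs), the liver cells that turn into collagen-producing myofibroblasts, so all 8 libraries come from a single line in culture. Both groups grew in DMEM with 5% fetal bovine serum and were harvested after 24 h, one with the vehicle DMSO (control, 4 libraries) and the other with 50 µM OSMI-1, which inhibits OGT (OGTi, 4 libraries). The labels call the 4 libraries of a group biological replicates, and the study's methods pair the control and the treated library of the same replicate number.

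Glucose enters the cell through transporters of the SLC2A family, and hexokinase traps it by adding a phosphate. Phosphofructokinase then commits it to glycolysis, aldolase splits the sugar, and the lower enzymes, from GAPDH to pyruvate kinase, recover ATP and yield pyruvate. Lactate dehydrogenase turns pyruvate into lactate, which leaves with a proton through monocarboxylate transporters. Activated stellate cells are known for high glucose uptake and lactate output, and a branch that leaves glycolysis after the hexokinase and isomerase steps makes UDP-GlcNAc, the sugar donor that OGT uses.

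The start-site windows of 4 members are shown because SLC2A1, ENO1 and LDHA are the called genes whose call held under every setting tried, and PGK1 is the member with the smallest change. Each window runs from 250 bases before to 50 bases after the first RefSeq start of the gene and is given 5′ to 3′ on the gene's own strand (GRCh38.p14). The gene positions given further on come from GENCODE and can start elsewhere, as those of PGK1 and ENO1 do. Capitals mark ACGTG, the core of the hypoxia response element bound by HIF factors, and GGGCGG, the GC box bound by SP factors, each on either strand, so CACGT and CCGCCC are the reverse-strand forms. An E-box, CACGTG, contains ACGTG on both strands and is capitalised with it.
SLC2A1, chr1:42958819-42959118, minus strand: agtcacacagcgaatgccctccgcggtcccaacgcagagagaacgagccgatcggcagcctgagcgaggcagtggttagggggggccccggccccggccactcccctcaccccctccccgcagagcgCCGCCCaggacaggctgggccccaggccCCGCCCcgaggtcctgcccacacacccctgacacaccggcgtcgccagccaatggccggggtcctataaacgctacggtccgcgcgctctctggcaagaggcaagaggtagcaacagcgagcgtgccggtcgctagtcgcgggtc
PGK1, chrX:78103998-78104297, plus strand: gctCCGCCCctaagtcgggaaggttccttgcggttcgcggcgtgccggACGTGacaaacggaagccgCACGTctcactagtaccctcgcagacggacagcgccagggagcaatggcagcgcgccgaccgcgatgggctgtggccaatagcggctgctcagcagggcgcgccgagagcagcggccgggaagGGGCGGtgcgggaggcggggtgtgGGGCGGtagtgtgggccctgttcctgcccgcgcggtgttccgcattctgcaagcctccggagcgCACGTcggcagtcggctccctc
ENO1, chr1:8878637-8878936, minus strand: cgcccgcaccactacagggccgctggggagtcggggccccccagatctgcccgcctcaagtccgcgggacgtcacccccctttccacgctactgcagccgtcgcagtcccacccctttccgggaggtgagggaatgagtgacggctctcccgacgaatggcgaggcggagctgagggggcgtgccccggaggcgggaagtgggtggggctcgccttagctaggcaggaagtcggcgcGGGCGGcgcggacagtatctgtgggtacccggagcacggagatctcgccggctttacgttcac
LDHA, chr11:18394313-18394612, plus strand: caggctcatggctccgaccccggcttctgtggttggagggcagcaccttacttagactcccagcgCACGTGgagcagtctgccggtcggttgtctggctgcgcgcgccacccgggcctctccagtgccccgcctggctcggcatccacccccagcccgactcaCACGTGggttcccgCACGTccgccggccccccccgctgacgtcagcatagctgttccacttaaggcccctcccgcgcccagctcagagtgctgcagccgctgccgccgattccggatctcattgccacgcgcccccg
The LDHA window held 5 matches to ACGTG, in a pair of E-boxes that start at -185 and -87 from the start site and a further match at -73, and it held 0 GC boxes, while a second LDHA window, not shown, held 0 matches to ACGTG and 4 GC boxes. PGK1 held 3 matches to ACGTG, at -202, -183 and 29, and 3 GC boxes. SLC2A1 and ENO1 held 0 matches to ACGTG in these windows, with 2 GC boxes and 1. All 10 members matched the RefSeq table, with 23 windows in all. ACGTG occurred in 9 of these 23 windows against 21.4% of all 35116 windows, and GGGCGG in 14 against 45%. The letters are a description of the sequence and not evidence of binding.

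The 10 members spanned a wide range of expression. Divided by merged exon length, the level in control cells was highest for GAPDH, at 51134 ± 2192 normalized counts per kilobase (SD, n = 4), followed by PKM (13058 ± 837), ALDOA (7348 ± 283), ENO1 (5255 ± 215), LDHA (2204 ± 177), PGK1 (1466 ± 79.3) and HK1 (623 ± 24.5). SLC2A1 (405 ± 15.3) and PFKP (399 ± 33.0) came next with overlapping ranges, and HK2 was the lowest at 215 ± 21.5. The ranges of all other neighbours in this order were separate in control cells. GAPDH lay above 99.97% of the tested genes with a known length on this scale, and HK2 above 66.3%. In OGTi cells the ranges of LDHA and PGK1 overlapped (1494 ± 145 against 1451 ± 63.8 per kilobase), as did those of PFKP and HK2 (348 ± 46.6 against 275 ± 30.3). SLC2A1, at 732 ± 39.4, lay above HK1, at 545 ± 20.6, the reverse of their order in control cells.

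The libraries held 24166756 to 28201215 counts in total, and every member had at least 1095 normalized counts in each library. OGT itself had 5351, 5977, 5655 and 5561 normalized counts in control replicates 1 to 4 and 4217, 3534, 4138 and 4695 in OGTi. OGT was called lower (-0.45 ± 0.09, DESeq2 q of 1.48e-06). OGA, whose product strips O-GlcNAc from proteins, fell in all 4 pairs (log2 fold change of -1.80 ± 0.09, DESeq2 q of 1.69e-92). All 10 stellate and myofibroblast markers were present, with a summed count of 241184 to 278942 in control and 178551 to 212441 in OGTi libraries. Of these 10, 8 were called lower and 1, TIMP1, higher, against 22.6% and 21.4% of all genes tested. Their median log2 fold change was -0.93. VIM, a large part of the sum, was not called, with means of 95086 in control and 89632 in OGTi. The summed markers of blood and Kupffer cells went from 2507 to 4098 up to 5633 to 9406, almost entirely through CD68, a lysosomal gene. PTPRC, which defines blood cells, and CSF1R, a macrophage receptor, had means of 7.64 and 6.88 counts in control and 2.84 and 4.42 in OGTi. CD14 and LYZ went the other way, with means of 61.8 and 13.3 in control and 68.1 and 18.6 in OGTi. PTPRC, CSF1R, CD14 and LYZ were not called. Hepatocyte markers summed to 47.1 to 105 in control and 201 to 299 in OGTi, endothelial markers to 75.0 to 98.6 and 19.0 to 45.7, and cholangiocyte markers to 681 to 1151 and 955 to 1273. The hepatocyte rise was almost entirely CYP2E1, with means of 41.4 counts in control and 199.8 in OGTi. SERPINA1 and TF were not called, and APOA1 was not tested. The cholangiocyte sum was mostly SOX9, which was called higher, while KRT7 was called lower. The group ranges of SOX9 and of KRT7 overlapped. Of these lists, ALB, APOB, TTR, CYP3A4, STAB2, CD163, EPCAM and CFTR were not analysed here and are not part of the sums. The part of these markers in the results was not tested.

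OGTi did not move glycolysis as a block. Of the 10 members, 6 were called by DESeq2 at a q of 0.05 or lower, namely SLC2A1 and HK2 higher and HK1, PFKP, ENO1 and LDHA lower in OGTi cells. The same test called 43.9% of all 14895 genes, 21.4% higher and 22.6% lower, beside 2 of the 10 members higher and 4 lower. With so few members these shares were not compared by a test. The calls of HK1, HK2 and PFKP did not hold under every setting. The median log2 fold change was -0.04 over the members and 0.00 over all genes tested. All 6 called members changed in the same direction in all 4 pairs, as did PKM, which was not called. The calls came from a fit on these same pairs, so this agreement is no separate support. The 4 members not called were ALDOA, GAPDH, PGK1 and PKM. The groups did not overlap for 5 members, against 38% of all genes; OGTi lay above for 2 members (18.8% of all genes) and below for 3 (19.2%). In bulk libraries a lower level in every cell and a loss of expressing cells cannot be told apart.

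**Figure D1:**
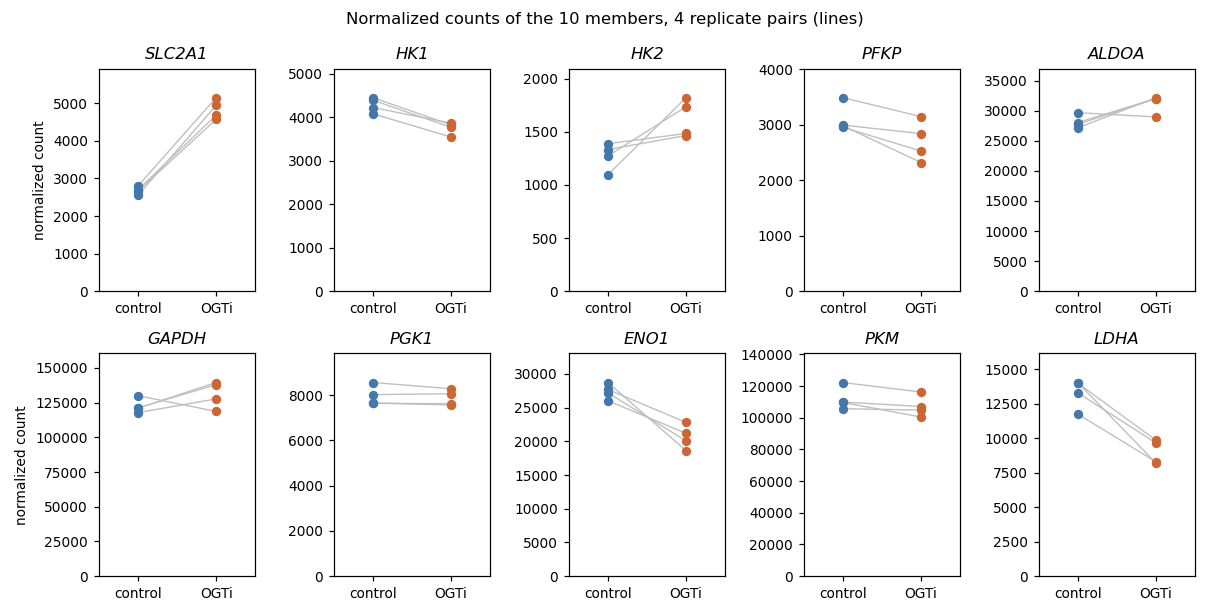
Normalized counts (y axis, from 0) of the 10 members in control (blue) and OGTi (orange) libraries; each point is 1 library and each line joins the libraries of the same replicate number. SLC2A1 and HK2 lie higher in every OGTi library than in any control, and HK1, ENO1 and LDHA lie lower.

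SLC2A1 (chromosome 1, 42925353 to 42958893, minus strand) encodes GLUT1, the main carrier of glucose into most cultured cells, and it had the largest change among the members. It had 2664, 2798, 2552 and 2700 normalized counts in control replicates 1 to 4, and 4573, 5151, 4947 and 4683 in OGTi. Every OGTi library was therefore far above every control. The change was 80.5% upward, or 0.85 ± 0.07 as a log2 fold change with its SE (DESeq2 q of 6.98e-31). Of all tested genes, called or not and with low counts included, 18.3% moved further than this in either direction. Among called genes, 758 had a larger rise. Leaving out 1 replicate pair at a time gave 0.81 to 0.88.

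The hexokinase genes went in opposite directions. HK1 (chromosome 10, 69269984 to 69401884, plus strand) encodes the broadly expressed enzyme bound to the outer mitochondrial membrane. It had 4221, 4077, 4390 and 4448 normalized counts in control and 3859, 3543, 3763 and 3822 in OGTi. The groups did not overlap, although the step between them was small, at -12.5% (log2 fold change of -0.19 ± 0.07, DESeq2 q of 0.0124). HK2 (chromosome 2, 74834127 to 74893359, plus strand), the inducible hexokinase of muscle, fat and tumour cells, had 1095, 1273, 1388 and 1333 in control and 1822, 1737, 1485 and 1466 in OGTi. It rose by 27.9% (0.35 ± 0.11, DESeq2 q of 0.00368), with OGTi replicates 1 and 2 well above replicates 3 and 4. Neither call was independent of single pairs. The HK2 call was lost when replicate 1 was dropped (0.23, q of 0.0773) and when replicate 2 was dropped (0.32, q of 0.0505). The HK1 call was lost on dropping replicate 2 (q of 0.0873), 3 (q of 0.0740) or 4 (q of 0.0969), while its log2 fold change stayed between -0.21 and -0.19.

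PFKP (chromosome 10, 3066333 to 3137718, plus strand) encodes the platelet-type subunit of phosphofructokinase, the committed step. Its normalized counts were 3489, 2994, 2955 and 2982 in control and 3146, 2840, 2527 and 2319 in OGTi. The ranges overlapped because replicate 1 was the highest library in both groups, but each treated library was below its own control. The log2 fold change was -0.20 ± 0.08 (DESeq2 q of 0.0226). This call rested on the pairing, since the q was 0.125 without the replicate block, and it was also lost without replicate 3 (q of 0.0940) or replicate 4 (-0.15, q of 0.220).

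ALDOA (chromosome 16, 30064164 to 30070457, plus strand), the main aldolase outside liver and brain, was not called. It had 28026, 27731, 27119 and 29660 normalized counts in control and 32003, 31984, 32164 and 28958 in OGTi. The treated libraries of replicates 1 to 3 were nearly equal and above all controls, and OGTi replicate 4 lay inside the control range. On the log2 scale the difference was 0.15 ± 0.07 (DESeq2 q of 0.0561). Without replicate 4 the gene passed (0.21, q of 0.0224), and it passed narrowly without the replicate block (q of 0.0489).

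GAPDH (chromosome 12, 6534512 to 6538374, plus strand), the enzyme that makes glycolytic NADH and a common reference gene, had 120975, 121249, 117803 and 130036 normalized counts in control and 139531, 138029, 127704 and 118686 in OGTi. Replicate 4 went the other way from the other pairs. The log2 fold change was 0.09 ± 0.07 (DESeq2 q of 0.291), with a 95% interval from -3.16% to 17.7%. PGK1 (chromosome X, 77910739 to 78129295, plus strand), which makes the first ATP of the lower pathway, had 8562, 7645, 8027 and 7656 in control and 8287, 7625, 8065 and 7570 in OGTi. The members of each pair were close to each other, and the difference was -0.02 ± 0.06 (DESeq2 q of 0.873), with a 95% interval from -9.15% to 7.79%. PKM (chromosome 15, 72199029 to 72231819, minus strand) encodes pyruvate kinase, which makes pyruvate and the second ATP. It had 122295, 109718, 105728 and 110002 in control and 116282, 100503, 104906 and 107110 in OGTi. OGTi was lower in all 4 pairs, the group ranges overlapped, and the difference did not pass the test (-0.06 ± 0.06, DESeq2 q of 0.414, 95% interval from -11.7% to 3.86%). Counts per gene do not separate the alternative splice forms of PKM.

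ENO1 (chromosome 1, 8861000 to 8879190, minus strand), the ubiquitous enolase, fell in every pair. Its normalized counts were 27697, 26025, 27195 and 28723 in control and 22804, 21180, 20064 and 18620 in OGTi. The highest treated library was below the lowest control. The change was -24.8% (log2 fold change of -0.41 ± 0.07, DESeq2 q of 1.61e-07), and -0.45 to -0.34 with 1 pair left out. LDHA (chromosome 11, 18394560 to 18408425, plus strand), which encodes the muscle-type subunit that favours lactate production, showed the largest fall. It had 14005, 11762, 14044 and 13303 normalized counts in control and 9851, 8290, 8200 and 9660 in OGTi. Again the groups did not overlap. The change was -32.3% (-0.56 ± 0.07, DESeq2 q of 1.50e-13), and -0.60 to -0.49 with 1 pair left out.

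The smaller changes depended on how libraries were scaled. The main scaling used medians of ratios, which centred the median log2 fold change of all genes at 0.00, with 48.6% of calls higher. Scaling by library totals, an alternative chosen after seeing the data, moved that median to 0.09 and put 61.2% of calls higher. With totals 4 members were called higher and 2 lower. ALDOA (0.24, DESeq2 q of 0.000854) and GAPDH (0.18, q of 0.0150) then passed, HK1 (-0.10, q of 0.216) and PFKP (-0.11, q of 0.215) did not, and PGK1 and PKM changed sign without being called (0.08 and 0.03). SLC2A1 (0.94), HK2 (0.44), ENO1 (-0.32) and LDHA (-0.47) were called in the same direction on either scale.

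**Figure D2:**
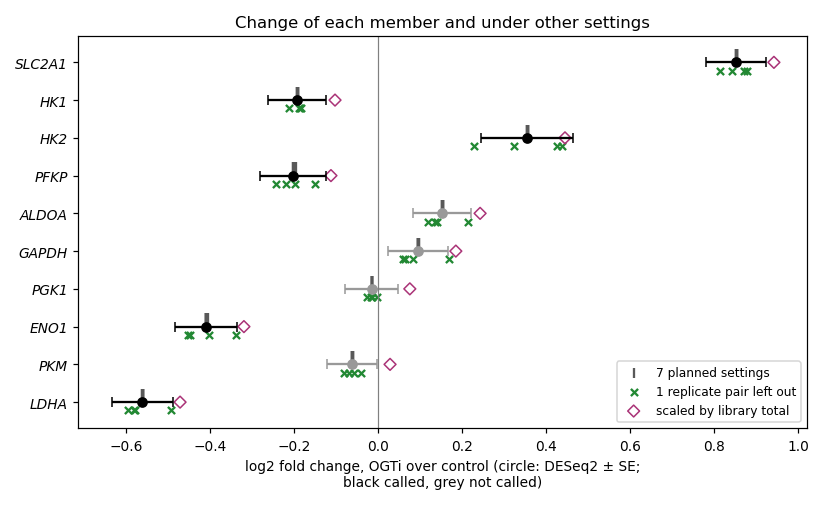
Log2 fold change of OGTi over control (x axis) for each member (y axis); circles are the DESeq2 values with their SE, black where called, ticks the 7 other planned settings with all libraries, crosses the 4 fits without 1 replicate pair, and diamonds scaling by library totals. Over the 12 other settings SLC2A1 runs from 0.81 to 0.94 and LDHA from -0.60 to -0.47. PGK1 and PKM, which lie close to 0, change sign with library totals.

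The members together took 1.19% ± 0.06 of all counts in control and 1.26% ± 0.07 in OGTi libraries (SD, n = 4 each), with ranges of 1.12% to 1.26% and 1.21% to 1.35% that overlapped. GAPDH alone took 0.453% ± 0.020 and 0.516% ± 0.036. These shares were not tested.

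Paralogs that catalyse the same step did not always follow the member. The share of each member in its isozyme family was computed from counts per kilobase of merged exons. The size of a share therefore depends on the lengths used, which were 6026 bases for LDHA and 2983 for LDHB. Shares were compared with a two-sided exact permutation test over 4 against 4 libraries, whose smallest p is 0.0286, with adjustment over the 6 families. Unlike the DESeq2 fit, this test did not use the replicate pairing. Within pairs, the HK2 share rose in all 4, and the shares of LDHA, ENO1 and ALDOA fell in all 4. HK2 made up 25.6% ± 1.7 of hexokinase expression (HK1 and HK2) in control and 33.5% ± 2.8 in OGTi cells (exact p of 0.0286, adjusted 0.0429). LDHA went from 63.3% ± 1.7 to 54.0% ± 2.9 of LDHA and LDHB, which encodes the heart-type subunit (exact p of 0.0286, adjusted 0.0429). LDHB itself was at 3800 ± 210 and 3784 ± 236 normalized counts (log2 fold change of -0.01 ± 0.07, DESeq2 q of 0.954). ENO1 went from 93.8% ± 0.4 to 90.4% ± 1.7 of the enolases and ALDOA from 97.6% ± 0.2 to 93.5% ± 0.9 of the aldolases (exact p of 0.0286, adjusted 0.0429 for each). ENO2, the neuronal enolase, was called higher (0.26 ± 0.08 on the log2 scale, DESeq2 q of 0.00502), a call lost without replicate 3 (q of 0.0756) or 4 (q of 0.0653) and by edgeR without the replicate block (q of 0.0552), and ENO3, the muscle enolase, had 38.1 ± 13.2 counts in control. ALDOC, the brain-type aldolase, rose from 465 ± 48.2 to 1484 ± 220 normalized counts, 3.18-fold (1.67 ± 0.12, DESeq2 q of 6.09e-40), the largest change of a called gene among the glycolytic isozymes. In all 4 of these families the ranges of the groups were separate.

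For 2 families the share did not separate the groups. SLC2A1 made up 85.1% ± 1.0 of SLC2A1 and SLC2A3 in control and 85.1% ± 1.1 in OGTi cells (exact p of 0.971, adjusted 0.971). SLC2A3, which encodes the high-affinity carrier GLUT3, rose by the same log2 fold change of 0.85 ± 0.11 (DESeq2 q of 1.19e-13), and 3 of its 8 counts were fractional, so some of its reads were shared with another gene. PFKP made up 32.3% ± 0.5 and 30.8% ± 1.4 of the phosphofructokinases (exact p of 0.143, adjusted 0.171). PFKL and PFKM, the liver and muscle types, were not called (-0.13 ± 0.08 and -0.02 ± 0.08, DESeq2 q of 0.165 and 0.877), and PFKM had fractional counts in all 8 libraries.

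**Figure D3:**
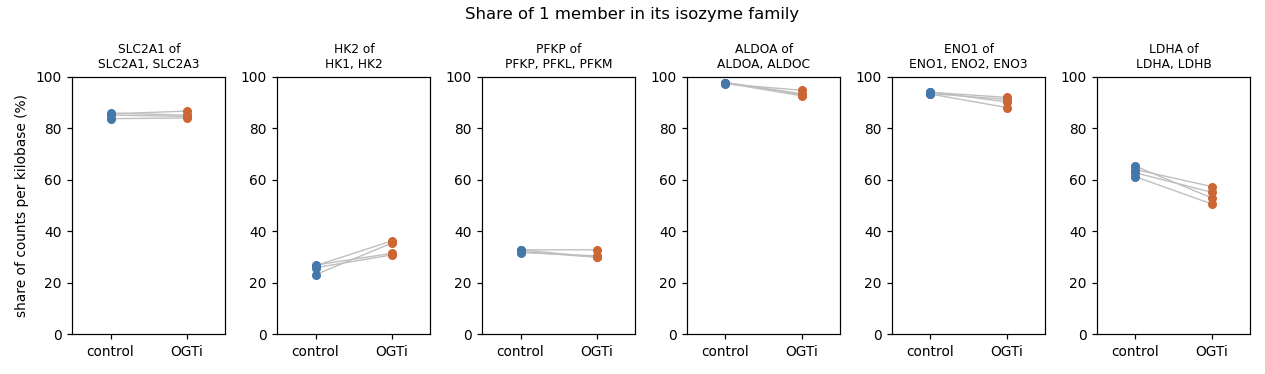
Share of 1 member in the summed counts per kilobase of its isozyme family (y axis, %, 0 to 100) in control (blue) and OGTi (orange) libraries, with lines joining replicate pairs. HK2 rises from 23.2-26.9% to 30.8-36.3% and LDHA falls from 61.2-65.3% to 50.6-57.4%, while SLC2A1 stays at about 85%.

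GPI, TPI1 and PGAM1 fill the steps between the members. GPI, the isomerase after hexokinase, was called higher (log2 fold change of 0.26 ± 0.06, DESeq2 q of 0.000277), with fractional counts in all 8 libraries, so some of its reads were shared with other genes. TPI1, named after its values were seen so that each step is covered, was called higher as well (0.20 ± 0.07, q of 0.00731), and PGAM1, the mutase before enolase, was called lower (-0.24 ± 0.07, q of 0.00294), with fractional counts in 4 libraries. TPI1 was lost without replicate 2 or 3 (largest q of 0.102), and PGAM1 was lost without replicate 4 (q of 0.0503) and with library totals. Along the pathway, the calls down to TPI1 were mixed, with SLC2A1, SLC2A3, HK2, GPI, ALDOC and TPI1 higher and HK1 and PFKP lower. From GAPDH to lactate dehydrogenase, PGAM1, ENO1 and LDHA were called lower and ENO2 higher.

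**Figure D4:**
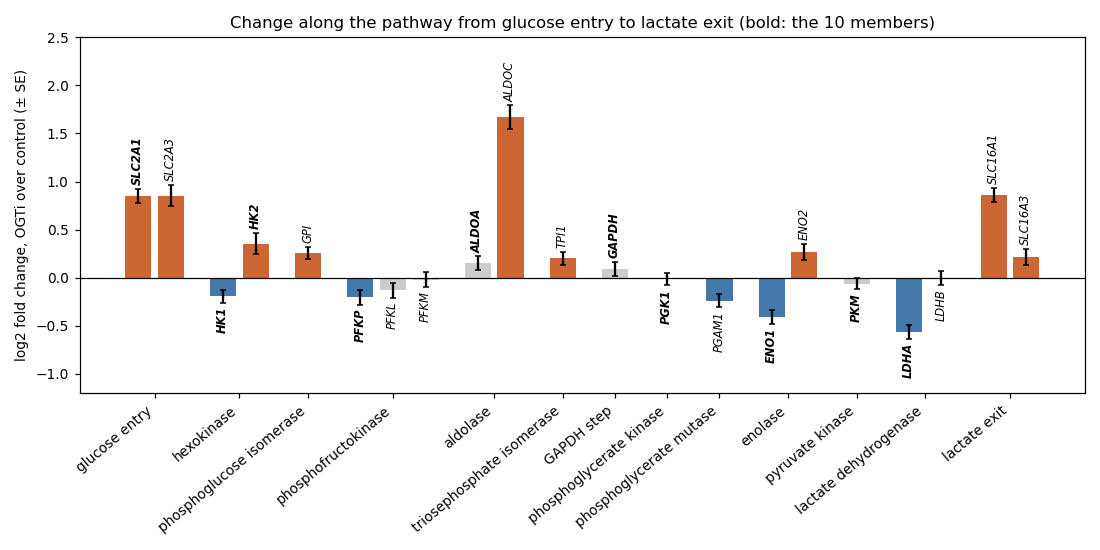
OGTi over control on the log2 scale, with SE (y axis), for the genes of each step (x axis; members in bold), from glucose entry to lactate exit; orange bars were called higher, blue lower, and grey were not called. ALDOC and the transporters SLC2A1, SLC2A3 and SLC16A1 stand highest, and ENO1 and LDHA lowest.

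Genes around the members were taken from 10 lists of general knowledge, which held 105 tested genes, of which 44 were called higher and 23 lower. The shares over all genes against which these and the following list counts are to be read are 21.4% higher and 22.6% lower. Of 9 other glucose transporter genes tested, 4 were called higher and 1 lower, with a median log2 fold change of 0.52. The gene at this median, SLC2A12, was not called (DESeq2 q of 0.170). Its means were 52.0 normalized counts in control and 75.0 in OGTi, and its group ranges overlapped. SLC2A11, a sugar carrier of low abundance, rose from 75.2 ± 5.4 to 223 ± 22 normalized counts (1.57 ± 0.20, DESeq2 q of 6.97e-14), and SLC2A13, a proton-coupled inositol carrier, had 0.80 ± 0.16 (q of 4.82e-06). Of the 5 tested genes that set fructose 2,6-bisphosphate, the activator of phosphofructokinase, PFKFB4 (0.83 ± 0.11, q of 3.09e-12) and PFKFB3 (0.37 ± 0.12, q of 0.00745) were higher and 0 were lower. PFKFB3 was not called without replicate 1 (0.24, q of 0.136).

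At the exit of the pathway, 3 of 6 tested genes were called higher and 1 lower. SLC16A1, which encodes the lactate carrier MCT1, had 2018, 2342, 2322 and 2221 normalized counts in control and 3514, 4355, 4060 and 4255 in OGTi (log2 fold change of 0.86 ± 0.07, DESeq2 q of 8.88e-31). SLC16A1 was thus higher in every pair, as SLC2A1 was, while LDHA was lower in every pair. SLC16A3, which encodes MCT4 and was named after its values were seen, had 0.22 ± 0.08 (q of 0.0162) and was lost without replicate 2, 3 or 4 (largest q of 0.117). Of the chaperones of these carriers, BSG was higher (0.30 ± 0.07, q of 0.000225) and EMB was lower (-1.03 ± 0.26, q of 0.000349).

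Pyruvate can enter the mitochondrion instead. On this list 4 of 15 tested genes were called higher and 6 lower. MPC1, a subunit of the pyruvate carrier, rose from 441 ± 25.7 to 774 ± 38.4 normalized counts (0.81 ± 0.11, DESeq2 q of 8.69e-12). DLD, a subunit of pyruvate dehydrogenase, fell (-0.55 ± 0.09, q of 4.90e-08), and PCK2, which draws phosphoenolpyruvate from mitochondrial oxaloacetate, rose (1.03 ± 0.12, q of 9.97e-18). Of 8 tested genes of the hexosamine branch and O-GlcNAc cycling, 2 were called higher, GFPT2 (1.04 ± 0.12, q of 1.19e-15) and PGM3, and 2 lower, OGA and OGT. For PGM3 (0.24 ± 0.09, q of 0.0179) the group ranges overlapped, and the largest q with 1 pair left out was 0.133. GFPT1, the other isozyme of the first step beside GFPT2, was not called (-0.01 ± 0.10, q of 0.958); it and PGM3 were named after their values were seen.

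Among 14 tested regulators of glycolysis, 6 were called higher and 4 lower. TXNIP, which restrains glucose uptake and is known as a glucose-responsive gene, had 3056, 3598, 3629 and 4120 normalized counts in control and 1649, 1839, 1709 and 1936 in OGTi (log2 fold change of -1.01 ± 0.08, DESeq2 q of 9.82e-38). Its direction was opposite to that of SLC2A1 in all 4 pairs. HIF1A (0.41 ± 0.09, q of 1.16e-05) and EPAS1 (0.32 ± 0.07, q of 1.02e-05), which encode the oxygen-regulated HIF subunits, were higher. Of 14 tested HIF targets outside glycolysis, 7 were called higher and 2 lower, with a median of 0.56. NDRG1 (1.52 ± 0.08, q of 6.21e-75), VEGFA (1.19 ± 0.11, q of 3.99e-24) and P4HA1 (437 ± 29.9 to 875 ± 44.9 normalized counts, q of 2.92e-19) had the largest statistics.

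**Figure D5:**
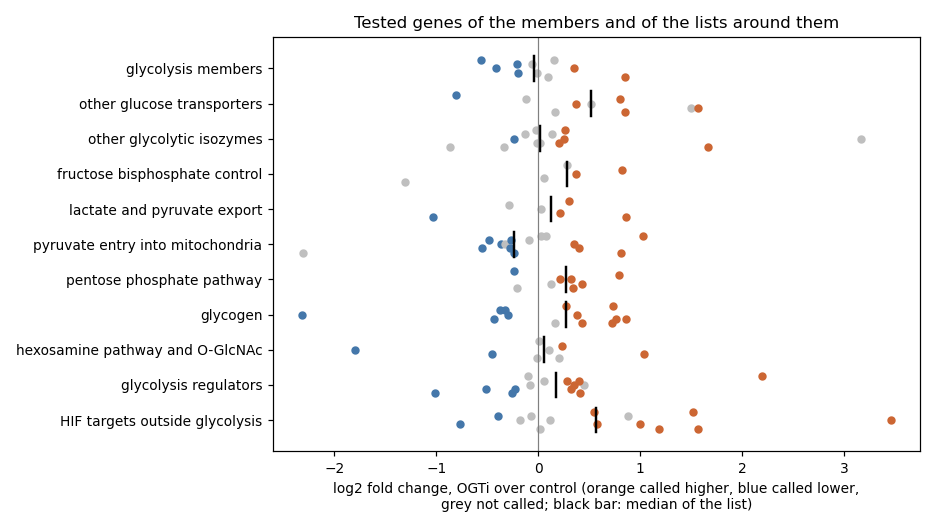
Log2 fold change of OGTi over control (x axis) of each tested gene of the members and of the 10 lists (y axis), coloured by call, with a black bar at the median of each list. The members spread to both sides of 0, with a median of -0.04, while the glucose transporters (0.52) and the HIF targets outside glycolysis (0.56) have the highest medians.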

How the data were processed

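RNA of 8 LX-2 libraries was enriched with oligo dT, made into stranded libraries and sequenced from both ends. The authors aligned reads to hg38 with Bowtie2 2.3.5.1 and counted them per gene with RSEM 1.3.1. The deposited values are expected counts, which are estimated counts not scaled for depth in which reads with several alignments are divided between genes, and 0 of the 10 members had a fractional value in any library. The deposited comparison table (fold changes and p-values of the authors) was not used.

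Expected counts were rounded, genes with a total under 10 were dropped, and OGTi was compared with control by the Wald test of DESeq2 1.42.0 in R 4.3.3, with medians of ratios as size factors and replicate number as a block, as the study's methods state. A gene was called at a Benjamini-Hochberg adjusted p (q) of 0.05 or lower over all genes, with independent filtering, and fold changes were not shrunken. All 8 libraries shared 1 dispersion per gene. Normalized counts (each count over its library's size factor) are given with SD over 4 libraries. The pairing follows the methods, and deviations from the group mean correlated across 12317 genes with r of 0.378, 0.319, 0.157 and 0.294 between libraries of replicates 1 to 4, although genes are no independent replicates. The r of control replicate 3 was larger with OGTi replicate 4 (0.307), and that of OGTi replicate 3 was larger with control replicate 4 (0.196). For replicates 3 and 4 these r therefore did not favour the labelled pairs. Libraries of a group differed by more than counting error (chi-square per degree of freedom of 8.38 to 34.7).

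The members and lists were chosen with earlier results of these data known. Named genes were the members, up to 3 called genes per list with the largest absolute Wald statistic, the isozyme families, OGT and OGA, and TPI1 and SLC16A3 were added after their values were seen. A gene that this rule names is not reported here. Lists were described by counts and medians with no test. Gene positions and merged exon lengths came from GENCODE 44 on GRCh38, matched by symbol for 96.7% of genes. Start-site windows came from RefSeq (GRCh38.p14). Isozyme shares used scipy 1.17.1. Alternatives were edgeR 4.0.16 with quasi-likelihood tests, fits without the block, other size factors and filters, other lengths, and leaving out each replicate pair. The fits were tested on simulated data. Counting error at this depth is small for the members, so the spread between libraries limits the precision.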

Additional observations from a re-analysis of the deposited data

Results flagged for a closer look

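In each group of 4 libraries, the gap between the highest or lowest value and its nearest neighbour was set against the range of the group, and values past the 95% critical value of the Dixon test are given here. Of 106 groups tested 8 passed, where chance passes about 1 in 20. Among the members, the PFKP count of control replicate 1 was 3489, with its fellow controls at 2955 to 2994, and the ALDOA count of OGTi replicate 4 was 28958, with the rest of the group at 31984 to 32164. Of the 12 other settings, ALDOA was called when replicate 4 was left out, without the block in DESeq2 and with library totals. PFKP stayed called without replicate 1. Among the other genes, SLC2A3 had 573 in control replicate 4 against 487 to 502, and 769 in OGTi replicate 1 against 976 to 987. EMB had 72.1 in OGTi replicate 4 against 46.1 to 46.6. VEGFA had 1363 in OGTi replicate 1 against 1813 to 1844. LDHB had 4114 in control replicate 1 against 3688 to 3705, and SLC16A3 had 2132 there against 1771 to 1831.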

How the results depend on the processing

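Under 12 other settings the number of members called was 4 to 6. Of the 46 named genes, 36 kept their side of the threshold under every setting, among them the members SLC2A1, ENO1, LDHA, PGK1 and PKM, although PGK1 and PKM, not called, changed sign with library totals. Without the replicate block DESeq2 called 6 members and 6307 genes in all, with PFKP lost (-0.20, q of 0.125) and ALDOA gained (0.15, q of 0.0489), and edgeR without the block called 5 members. Leaving out 1 replicate pair gave 1 to 3 members higher and 2 to 4 lower. Scaling by library totals gave 4 higher and 2 lower. The isozyme share differences with 1 pair left out were 6.41 to 8.98 percentage points for HK2, -4.68 to -3.87 for ALDOA, -3.83 to -2.74 for ENO1, -10.2 to -8.29 for LDHA, -2.11 to -1.17 for PFKP and -0.37 to 0.25 for SLC2A1, which was 0.25 without replicate 2 and 0.16 without replicate 3. With 3 against 3 libraries no exact p can reach 0.05, so the adjusted values of these fits carry no information. Other lengths kept the direction and the call of every share. Counts of all genes called ran from 5127 to 7074, and called genes of the lists from 52 to 71.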

Other observations

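The pentose phosphate pathway and glycogen, which share glucose 6-phosphate with glycolysis, are described here as lists with no test. Of 8 tested pentose phosphate genes 5 were called higher and 1 lower, and PGD, the third enzyme of the oxidative branch, rose from 2404 ± 330 to 4142 ± 401 normalized counts (log2 fold change of 0.79 ± 0.09, DESeq2 q of 6.48e-19). H6PD, an enzyme of the endoplasmic reticulum (0.43 ± 0.08, q of 6.17e-07), was higher in all 4 pairs, with fractional counts in 5 libraries. Of 13 tested glycogen genes 7 were called higher and 5 lower. The glycogen phosphorylase genes PYGB (0.73 ± 0.07, q of 3.87e-26) and PYGL (0.74 ± 0.08, q of 8.41e-19), which release glucose 1-phosphate, were higher, and so was G6PC3 (0.86 ± 0.09, q of 2.83e-18), a broadly expressed glucose 6-phosphatase.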
